A study of Mus musculus with 8 samples.

Results

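The genes described here carry the signal from motor nerve to contraction in skeletal muscle, and were chosen by name: 3 subunits of the L-type calcium channel of skeletal muscle (Cacna1s, Cacng1 and Cacnb1), the calcium release channel Ryr1, 5 subunits of the muscle acetylcholine receptor (Chrna1, Chrnb1, Chrnd, Chrne and Chrng) and the receptor clustering kinase Musk. They are 10 of 29608 gene names on the array and have 12 of its 39429 probes, with a pair of probes each for Cacna1s and Chrna1 and a single probe for each of the others. The choice was made with earlier results of these data known. The study had already reported Cacna1s as raised in WT mice and Chrna1 as lowered in PAC1R KO mice 30 min after PACAP. Each probe was described apart, with its PACAP over vehicle ratio and its level in every RNA sample. In both genes with 2 probes, the probe with the higher mean level is called the brighter and the other the dimmer.

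At the neuromuscular junction, acetylcholine from the motor nerve opens a receptor built of alpha, beta and delta subunits with either a gamma subunit (fetal and denervated muscle) or an epsilon subunit (adult muscle). MuSK, a receptor tyrosine kinase switched on by nerve-derived agrin, gathers these receptors under the nerve ending. The action potential that follows is read in the fibre's transverse tubules by the L-type channel, whose pore subunit is the voltage sensor, and this opens the ryanodine receptor of the sarcoplasmic reticulum so that calcium reaches the filaments. Skin holds few such fibres, apart from thin sheets of cutaneous muscle and any muscle of the paw taken with it.

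Palm skin of C57BL/6J WT mice and of PAC1R KO mice (Adcyap1r1 -/-, labelled Pac1-r KO), males of 9 to 10 weeks per the study's methods, was measured after an intradermal footpad injection under anaesthesia. The injection was 5 µL of vehicle (saline with 0.1% BSA), alone or with 1e-07 mol/L of the neuropeptide PACAP, and the skin was taken 30 or 60 min later. PAC1R is selective for PACAP, which per the study also shares the receptors VPAC1R and VPAC2R with the related peptide VIP. The 8 RNA samples (2 genotypes, 2 times, PACAP or vehicle) were hybridised as 4 pairs, and each pair was measured on 2 two-colour arrays with the dyes swapped. The study names 6 mice of each genotype but not how many entered an RNA sample, the knockout is germline and not restricted to a cell type, and all WT arrays shared one slide and all PAC1R KO arrays another, and genotype and slide therefore cannot be told apart. The dye-swapped arrays repeat the same RNA, so the spread between them is technical, each comparison is 1 replicate, and no test across animals could be made within a comparison.

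The skin markers were present: 10 of 10 epidermis genes were well above background in all 8 RNA samples on both arrays. So were 27 of 28 skeletal muscle fibre genes, the exception being Mybpc2. In the 4 vehicle samples the summed log2 level ran from 17.93 to 18.54 for the muscle fibre list and from 18.45 to 18.94 for the epidermis list. Muscle signal was thus high in these samples, though probes differ in brightness and the sums do not give shares of the tissue. The Adcyap1r1 probe gave log2 levels of 8.26 to 8.76 in the 4 WT samples and 7.91 to 8.56 in the 4 PAC1R KO samples. These ranges overlapped, and since it was not known here whether this probe lies in the deleted part of the gene, it does not check the genotype. Over all probes, the ratios of the swapped arrays, turned to PACAP over vehicle, correlated at -0.54 to -0.31, and over the 20682 to 23723 probes well above background in both channels at -0.06 to 0.42. Where neither ratio was 0, both arrays pointed the same way at 57.7% of probes in WT mice and 60.4% in PAC1R KO mice at 30 min, and at 43.9% and 42.5% at 60 min. At the 12 probes the same correlation was 0.73 for WT mice and 0.92 for PAC1R KO mice at 30 min, and 0.39 and 0.72 at 60 min.

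The array sees each gene through 60 bases, and the probes of the genes whose ratios were widest are shown first, because what a ratio stands for is the RNA these letters capture. Printed are bases 16 to 45 of each probe, or all 60 for Ryr1, whose probe covers 699 bases of genome and so joins sequence across 639 skipped bases, as spliced RNA does. Positions are those of the array files (mm9): Cacna1s at chr1:138016020-138016079 (brighter) and chr1:138015618-138015677 (dimmer), both on the plus strand, Ryr1 at chr7:29788789-29789487 on the minus strand, Chrna1 at chr2:73404112-73404171 (brighter) and chr2:73401389-73401448 (dimmer) on the minus strand, Chrnd at chr1:89096585-89096644 and Musk at chr4:58387070-58387129, both on the plus strand. No mm9 gene annotation was used here, so exon and coding limits are not given.
Cacna1s, brighter: ggtgccagggtctgtctgtcataaagccac
Cacna1s, dimmer: gaagtcgaggtggcagcaacagagctactg
Ryr1: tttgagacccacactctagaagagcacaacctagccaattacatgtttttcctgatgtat
Chrna1, brighter: tccttgaatcctttcacacttaccaaacat
Chrna1, dimmer: tctttagctttttctactcacgaccacttt
Chrnd: caggaccctcagaaactgtcggggataata
Musk: gcacagaatatgtaacgttgtatttgcatt
The Cacna1s probes start 402 bases apart and the Chrna1 probes 2723 bases apart, with the dimmer Chrna1 probe the nearer to the 3′ end.

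The gamma subunit marks the fetal receptor, and the probe of Chrng is shown whole because it must be told apart from near relatives. It lies at chr1:89106072-89106353 on the plus strand, where it skips 222 bases of genome.
Chrng: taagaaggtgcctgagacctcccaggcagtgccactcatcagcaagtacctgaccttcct

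At 30 min after injection, the probes of Cacna1s, Ryr1, Chrna1, Chrnd and Musk stood above vehicle in WT mice and below vehicle in PAC1R KO mice. The probes for Cacna1s (brighter), Ryr1, Chrna1 (dimmer), Chrnd and Musk were at least 1.5-fold above vehicle on both arrays in WT mice, and the same 5 probes were at least 1.5-fold below vehicle on both arrays in PAC1R KO mice. Of these, Cacna1s (brighter) passed the same limit in both genotypes after another background correction (normexp and loess), under which the other 4 did not. At 60 min none of the 12 probes passed that limit in either genotype. Cacng1, Chrne and Chrng stayed between 0.970-fold and 1.43-fold on every array in WT mice at 30 min and between 0.903-fold and 1.28-fold in PAC1R KO mice.

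By a rule with the study's fold and p limits (an average of at least 2.0-fold or at most 0.5-fold, with both arrays in the same direction and each with a Feature Extraction p under 0.01, the demand on both arrays being set here), 1 of 12 probes, that of Cacna1s (brighter), counted as up-regulated in WT mice at 30 min, where 0.254% of all probes did, and 0 counted as down-regulated, where 0.0964% did. In PAC1R KO mice at 30 min, 3 of 12 probes counted as down-regulated, those of Chrna1 (dimmer), Chrnd and Musk, against 0.107% of all probes, and 0 as up-regulated, against 0.601%. At 60 min, 0 of 12 counted in either direction, against 0.692% of all probes in WT mice and 0.292% in PAC1R KO mice. The p of this rule is the software's error estimate for a spot on 1 array and says nothing of animals. With the genes chosen after earlier results, shares of all probes here and below are a description and not a test.

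By the looser limit of 1.5-fold on both arrays, 5 of 12 were up-regulated in WT mice at 30 min (1.23% of all probes) and 0 down-regulated (0.332%). In PAC1R KO mice at 30 min 5 of 12 were down-regulated (1.35% of all probes) and 0 up-regulated (1.47%), and at 60 min 0 of 12 passed it in WT mice (1.04%) and in PAC1R KO mice (0.672%). After normexp and loess 1 of 12 passed in WT mice at 30 min (0.495% of all probes) and 1 of 12 in PAC1R KO mice (0.383%), the brighter Cacna1s probe in each, and the mean log2 ratios of the other 4 were 0.74 and -0.62 at Ryr1, 0.35 and -0.47 at Chrna1 (dimmer), 0.23 and -0.28 at Chrnd, and 0.37 and -0.26 at Musk. With an offset of 0 in that correction, in place of 50, 3 of 12 were up-regulated in WT mice (0.913% of all probes) and 4 of 12 down-regulated in PAC1R KO mice (0.7%). Ratios above 1 on both arrays were seen at 10 of 12 probes in WT mice at 30 min, compared with 20.4% of all probes and 34.5% of those well above background in both channels. Ratios below 1 on both arrays were seen at 9 of 12 in PAC1R KO mice at 30 min, compared with 26.1% and 40.6%. The median over the 12 probes was 1.47-fold in WT mice and 0.760-fold in PAC1R KO mice at 30 min. At 60 min it was 0.997-fold and 1.03-fold, while the median over all probes was 0 on the log2 scale in each comparison.

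**Figure D1:**
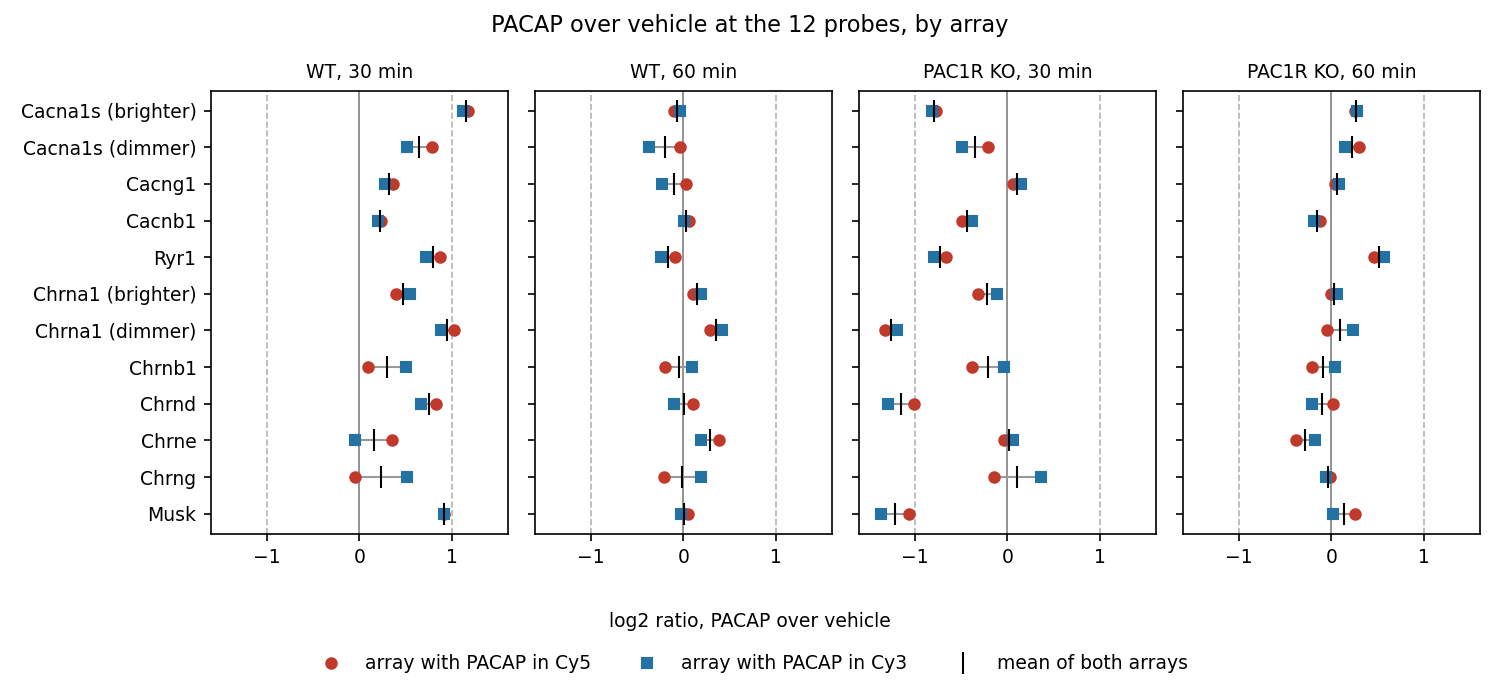
Log2 ratio of PACAP over vehicle (x axis) at each of the 12 probes (rows) in the 4 comparisons (panels). Circles are the array with PACAP in Cy5, squares the array with PACAP in Cy3, ticks their mean and dashed lines a change of 1 on the log2 scale. At 30 min the points lie right of 0 for most probes in WT mice and left of 0 in PAC1R KO mice, and at 60 min they lie on both sides of 0, between -0.39 (Chrne) and 0.57 (Ryr1), both in PAC1R KO mice.

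Cacna1s encodes the pore and voltage sensor of the channel. At its brighter probe the log2 level was 10.71 with vehicle and 11.86 with PACAP in WT mice at 30 min, 10.97 and 10.92 in WT mice at 60 min, 11.27 and 10.50 in PAC1R KO mice at 30 min, and 10.72 and 11.02 in PAC1R KO mice at 60 min. The PACAP sample of WT mice at 30 min was the highest of the 8 and that of PAC1R KO mice at 30 min the lowest, and the vehicle samples lay between them. In WT mice 30 min after PACAP the ratio was 2.22-fold (2.26-fold and 2.17-fold on the 2 arrays, Feature Extraction p of 3.5e-07 and 9.3e-07), and 0.576-fold in PAC1R KO mice at 30 min (0.584-fold and 0.568-fold). At 60 min it was 0.953-fold and 1.20-fold. The dimmer probe had the same directions with smaller ratios: 1.57-fold in WT mice at 30 min (1.72-fold and 1.43-fold) and 0.782-fold in PAC1R KO mice at 30 min (0.862-fold and 0.710-fold).

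The other channel subunits had ratios nearer to 1-fold than the brighter Cacna1s probe at 30 min in both genotypes. Cacng1, the gamma subunit found in skeletal muscle, was at 1.25-fold in WT mice and 1.08-fold in PAC1R KO mice at 30 min, above 1 on all 4 arrays. Its 8 levels ran from 8.39 to 9.31, with both samples of PAC1R KO mice at 30 min the lowest and both samples of WT mice at 60 min the highest, so that its levels differed more between sampling times and genotypes than between PACAP and vehicle. Cacnb1, the beta subunit that brings the channel to the membrane, was at 1.17-fold in WT mice and 0.739-fold in PAC1R KO mice at 30 min, and its levels ran from 7.42 with PACAP in PAC1R KO mice at 30 min to 8.43 with PACAP in WT mice at 60 min.

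Ryr1, the calcium release channel that the voltage sensor opens, followed the pattern of Cacna1s. Its log2 level was 10.06 with vehicle and 10.79 with PACAP in WT mice at 30 min, 10.45 and 10.42 in WT mice at 60 min, 10.61 and 9.99 in PAC1R KO mice at 30 min, and 10.13 and 10.49 in PAC1R KO mice at 60 min. The order of the 8 samples was the same as for the brighter Cacna1s probe, with 4 of the 7 neighbouring pairs closer than the SD between arrays. The ratio was 1.73-fold in WT mice at 30 min (1.82-fold and 1.64-fold on the 2 arrays) and 0.604-fold in PAC1R KO mice at 30 min (0.630-fold and 0.579-fold). In PAC1R KO mice at 60 min Ryr1 had the highest ratio of the 12 probes, at 1.43-fold (1.37-fold and 1.48-fold), and in WT mice at 60 min it was at 0.893-fold.

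Among the receptor genes, Chrna1 encodes the alpha subunit that binds acetylcholine, and its 2 probes gave different sizes. At the dimmer probe the log2 level was 6.67 with vehicle and 7.03 with PACAP in WT mice at 30 min, 6.53 and 6.63 in WT mice at 60 min, 6.92 and 6.46 in PAC1R KO mice at 30 min, and 6.63 and 6.64 in PAC1R KO mice at 60 min. The 2 PACAP samples at 30 min were again the highest and the lowest, though each lay within the median SD between arrays (0.11) of its neighbour, and 6 of 7 neighbouring samples were closer than the SD between arrays. The software's ratios are larger than the differences of these levels, whose background correction adds an offset of 50 to each signal and so narrows differences between dim signals. With an offset of 0 the gap was smaller but remained in PAC1R KO mice at 30 min (-0.98 on the log2 scale, against -1.26 by the software), and the rest of it was not traced. The ratio was 1.93-fold in WT mice at 30 min (2.03-fold and 1.84-fold) and 0.419-fold in PAC1R KO mice at 30 min (0.400-fold and 0.439-fold, Feature Extraction p of 8.8e-07 and 2.8e-05). At the brighter probe the ratios were 1.39-fold and 0.861-fold, and the levels ran from 9.496 with vehicle in WT mice at 30 min to 10.25 with PACAP in PAC1R KO mice at 60 min.

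Chrnd encodes the delta subunit. Its log2 level was 6.60 with vehicle and 6.83 with PACAP in WT mice at 30 min, 6.51 and 6.54 in WT mice at 60 min, 6.58 and 6.30 in PAC1R KO mice at 30 min, and 6.54 and 6.52 in PAC1R KO mice at 60 min. Here too the PACAP samples at 30 min were the extremes, and the other 6 samples lay within 0.09 of each other. The ratio was 1.68-fold in WT mice at 30 min (1.77-fold and 1.59-fold) and 0.451-fold in PAC1R KO mice at 30 min (0.497-fold and 0.409-fold, Feature Extraction p of 0.0014 and 0.0007). Chrnd was well above background on only 1 of the 2 arrays in the vehicle sample of WT mice and in the PACAP sample of PAC1R KO mice at 30 min, which leaves both ratios uncertain in size.

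Musk, the receptor clustering kinase, had a log2 level of 6.72 with vehicle and 7.09 with PACAP in WT mice at 30 min, 6.84 and 6.85 in WT mice at 60 min, 6.58 and 6.31 in PAC1R KO mice at 30 min, and 6.65 and 6.73 in PAC1R KO mice at 60 min. The highest and the lowest samples were those of Chrnd. The ratio was 1.88-fold on both arrays in WT mice at 30 min and 0.432-fold in PAC1R KO mice at 30 min (0.480-fold and 0.389-fold, Feature Extraction p of 0.001 and 0.00056).

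The 3 probes counted as down-regulated in PAC1R KO mice were dim. On the arrays of PAC1R KO mice at 30 min with PACAP in Cy3, the raw mean signal of Musk was 85.2 with vehicle and 41.9 with PACAP over local backgrounds of 21 and 18.5, that of Chrnd was 85.7 and 41.6 over 22.5 and 20, and that of the dimmer Chrna1 probe was 123 and 47.5 over 21 and 20. On that array the PACAP channel was not well above background for Chrnd and Musk, though it was on the array with PACAP in Cy5. After normexp and loess, 0 of 12 probes counted as down-regulated by the 2.0-fold rule. With an offset of 0 the log2 ratios of Chrna1 (dimmer), Chrnd and Musk were -0.98, -0.73 and -0.67, again with 0 counted. All 3 remained below vehicle in these settings.

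The beta subunit gene Chrnb1 was at 1.23-fold in WT mice and 0.866-fold in PAC1R KO mice at 30 min, but its swapped arrays lay far apart (1.06-fold and 1.42-fold, and 0.767-fold and 0.978-fold). Chrne, the adult epsilon subunit, was at 1.11-fold and 1.01-fold at 30 min, and at 1.22-fold in WT mice and 0.823-fold in PAC1R KO mice at 60 min. Chrng, the fetal gamma subunit, was at 1.18-fold and 1.08-fold at 30 min with a different direction on the swapped arrays in both genotypes, and it was well above background on both arrays in 3 of the 8 RNA samples and on 1 array in the other 5. The levels of Chrng ran from 6.20 to 6.44, the narrowest range of the 12 probes, with 6 of 7 neighbouring samples closer than the SD between arrays.

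**Figure D2:**
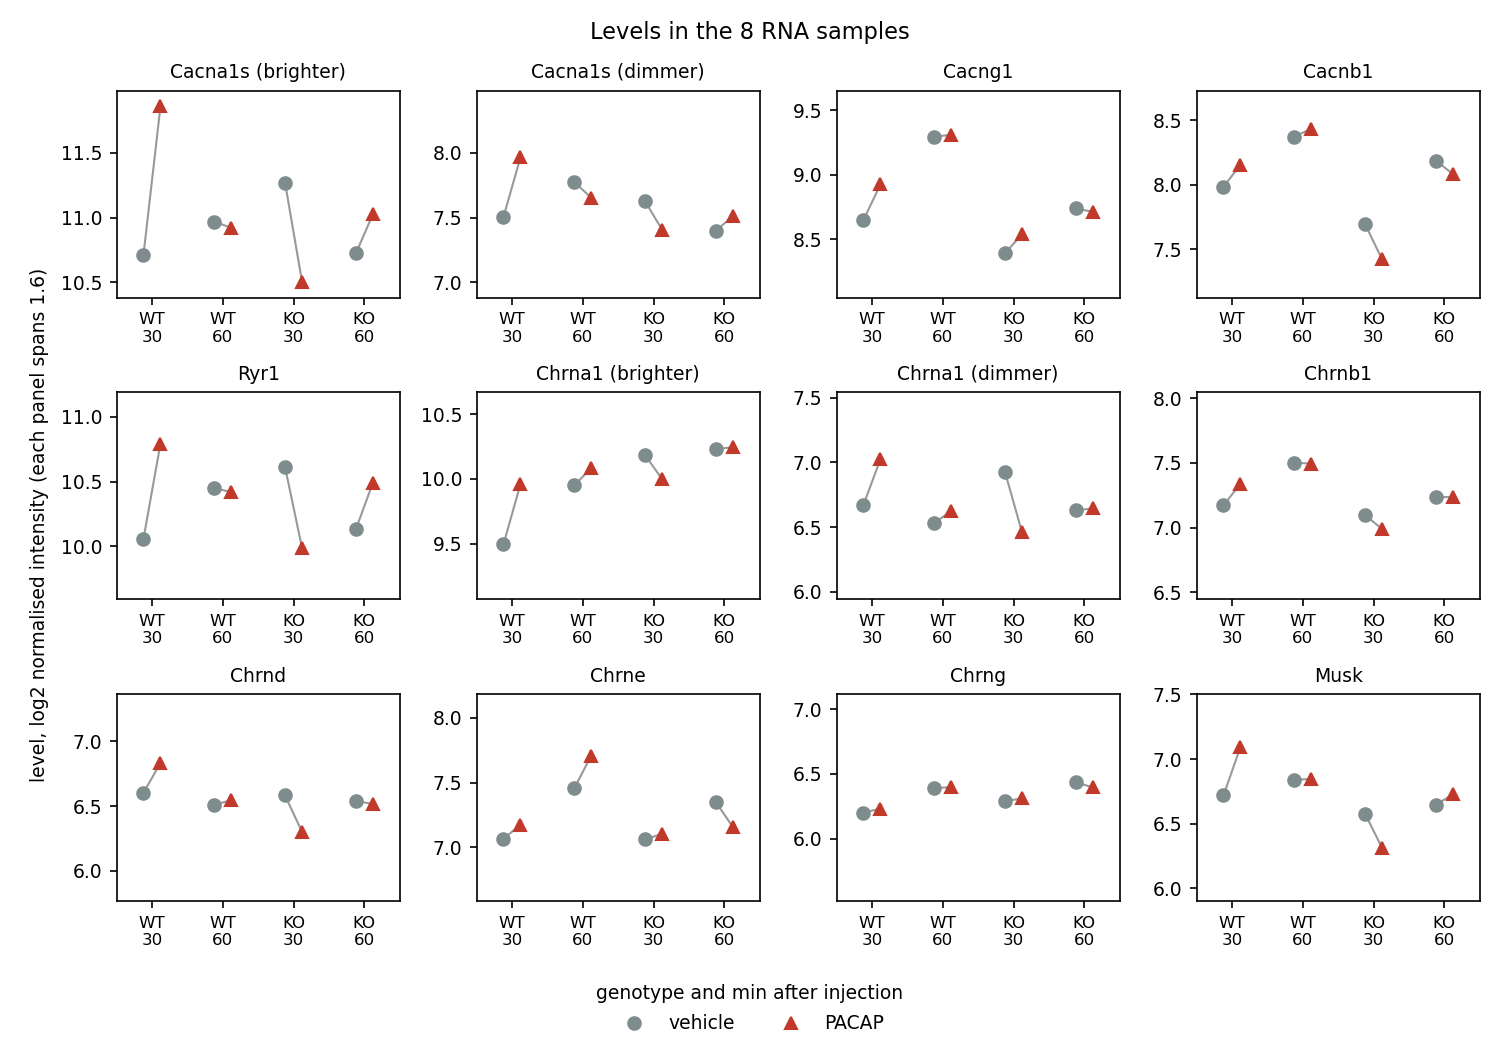
Log2 normalised intensity (y axis, 1.6 units in every panel) of the 12 probes in the 8 RNA samples, by genotype and min after injection. Circles are vehicle and triangles PACAP, each the mean of both arrays, joined where they were hybridised together. The PACAP samples taken at 30 min from WT mice and from PAC1R KO mice are the highest and the lowest at Cacna1s (brighter), Ryr1, Chrna1 (dimmer), Chrnd and Musk, although both extremes at Chrna1 (dimmer) and the lowest at Ryr1 (9.99 against 10.06) lie within the median SD between arrays (0.11) of the next sample.

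The vehicle samples also differed, but they came from different genotypes, sampling times and slides. Their span mixes these factors and gives no baseline for the ratios of PACAP over vehicle, which were taken within an array. At the brighter Cacna1s probe the 4 vehicle levels spanned 0.56, at Ryr1 0.55, at the brighter Chrna1 probe 0.74 and at Cacng1 0.90, while at Chrnd they spanned 0.09. Chrnd is a dim probe, and the offset added to each signal narrows differences between its levels. The vehicle sample of WT mice at 30 min was the lowest of the 4 at both Cacna1s (brighter) and Ryr1, and that of PAC1R KO mice at 30 min the highest, which is the reverse of the order of the PACAP samples, though the vehicle samples of WT mice at 30 min and PAC1R KO mice at 60 min, at 10.71 and 10.72 for Cacna1s and 10.06 and 10.13 for Ryr1, were closer than the median SD between arrays (0.03 and 0.11), which leaves the lowest of the 4 unresolved at both. In limma across 37525 probes, 0% had an adjusted p below 0.05 for PAC1R KO against WT vehicle samples, and 0% for 60 against 30 min. At an unadjusted p below 0.05 there were 2426 and 6287 probes. Of the 12, 2 were among the latter: Chrne, 0.34 higher at 60 min on the log2 scale (SE 0.06, 2 against 2 samples, limma adjusted p = 0.198), and Cacnb1, 0.44 higher (SE 0.13, limma adjusted p = 0.256).

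Ratios ran above vehicle on both arrays of WT mice and below it on both arrays of PAC1R KO mice at 30 min at 9 of 12 probes. Opposite directions of this kind, either way round, were seen at 28.8% of all probes and at 51.8% of those well above background in both channels of all 4 arrays, and at 7 of the 9 of the 12 probes that were so. Opposite directions of the genotypes at 60 min were seen at 5 of 12, against 9.01% and 15.3%. Between 30 and 60 min they were seen at 3 of 12 in WT mice, against 8.59% and 15.3%, and at 4 of 12 in PAC1R KO mice, against 21.3% and 35.3%.

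The ratios of the genotypes were next compared over both times. With 2 comparisons of each genotype, limma gave log2 differences below 0 (PAC1R KO less than WT) for all 12 probes, with a median of -0.41 beside 0.02 over the 30351 probes tested. None of the 12 passed, as 0% of all probes had an adjusted p below 0.05 and 972 an unadjusted p below 0.05. The dimmer Chrna1 probe had the lowest p of the 12, at -1.23 (SE 0.46, unadjusted p = 0.037, limma adjusted p = 0.839), followed by Chrnd at -0.999 (SE 0.41, limma adjusted p = 0.839). The brighter Cacna1s probe was at -0.80 (SE 0.50, limma adjusted p = 0.839) and Ryr1 at -0.42 (SE 0.49, limma adjusted p = 0.846). This fit joins 30 and 60 min, and whether the effect of genotype differs between the times could not be tested with 1 pair of each kind. Its spread is that between 30 and 60 min within a genotype, not between animals. Its p-values therefore do not weigh the opposite ratios at 30 min.

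For the mean of all 4 comparisons against 0, the log2 values of the 12 probes ran from -0.12 at Chrnd to 0.14 at the brighter Cacna1s probe, since the directions at 30 min cancel, and 0% of the probes tested had a limma adjusted p below 0.05 (678 with an unadjusted p below 0.05, 0 of the 12 among them). For 60 against 30 min, the values ran from -0.24 at Cacng1 to 0.38 at the dimmer Chrna1 probe, with 0% of all probes past an adjusted p of 0.05 (483 unadjusted, 0 of the 12 among them).

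The genes of the skeletal muscle fibre had ratios in the same directions in the same samples. The median log2 ratio of this list of 28 contractile and metabolic genes was 0.78 for WT and -0.68 for PAC1R KO mice at 30 min, with 27 and 2 genes above 0. Its summed log2 level was 17.93 with vehicle and 18.77 with PACAP in WT mice at 30 min, 18.54 and 17.88 in PAC1R KO mice at 30 min, and between 18.34 and 18.44 in the 4 samples at 60 min. By the 2.0-fold rule 6 of the 28 genes were up-regulated in WT mice at 30 min and 6 down-regulated in PAC1R KO mice at 30 min. The fast myosin heavy chains Myh4 (2.75-fold and 0.402-fold) and Myh1 (2.67-fold and 0.445-fold) were counted in both, and the giant filament gene Ttn (3.14-fold) in WT mice. The slow myosin Myh7 was also counted in both, at its dimmer probe. In bulk skin, more muscle RNA per fibre and more fibres in the sample cannot be told apart, and the part of muscle content in the ratios of the 10 genes was not tested.

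Set against the median of the muscle fibre list in the same comparison, Ryr1 was within 0.05 of it on the log2 scale at 30 min in both genotypes (0.01 and -0.05). Cacna1s (brighter) stood 0.36 above it in WT mice and -0.11 from it in PAC1R KO mice. Musk (0.13 and -0.53), Chrnd (-0.04 and -0.47) and Chrna1 (dimmer, 0.17 and -0.57) were near it in WT mice and lower in PAC1R KO mice, while the brighter Chrna1 probe (-0.31 and 0.47), Cacng1 (-0.46 and 0.79), Chrne (-0.63 and 0.70) and Chrng (-0.55 and 0.79) were nearer to 1-fold than the list in both. The place of the 3 dim probes depended on the background correction: after normexp and loess Musk (-0.41 and 0.36), Chrnd (-0.55 and 0.35) and Chrna1 (dimmer, -0.42 and 0.16) were also nearer to 1-fold than the list in both genotypes, and with an offset of 0 they were at -0.04 and -0.05, -0.25 and -0.11, and -0.04 and -0.36. The log2 ratios at 30 min in WT and in PAC1R KO mice had a Pearson correlation of -0.83 over the 12 probes and -0.74 over the 28 muscle fibre genes, as a description, since genes of the same arrays are not independent. WT less PAC1R KO at 30 min was above 0 in all 10 genes by their brightest probe, with a median of 0.67, beside 1.37 for the muscle fibre list. Over all probes this difference was above 0 at 38.2% with a median of 0, and over the 20451 probes well above background in both channels of all 4 arrays it was above 0 at 51.5% with a median of 0.02.

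**Figure D3:**
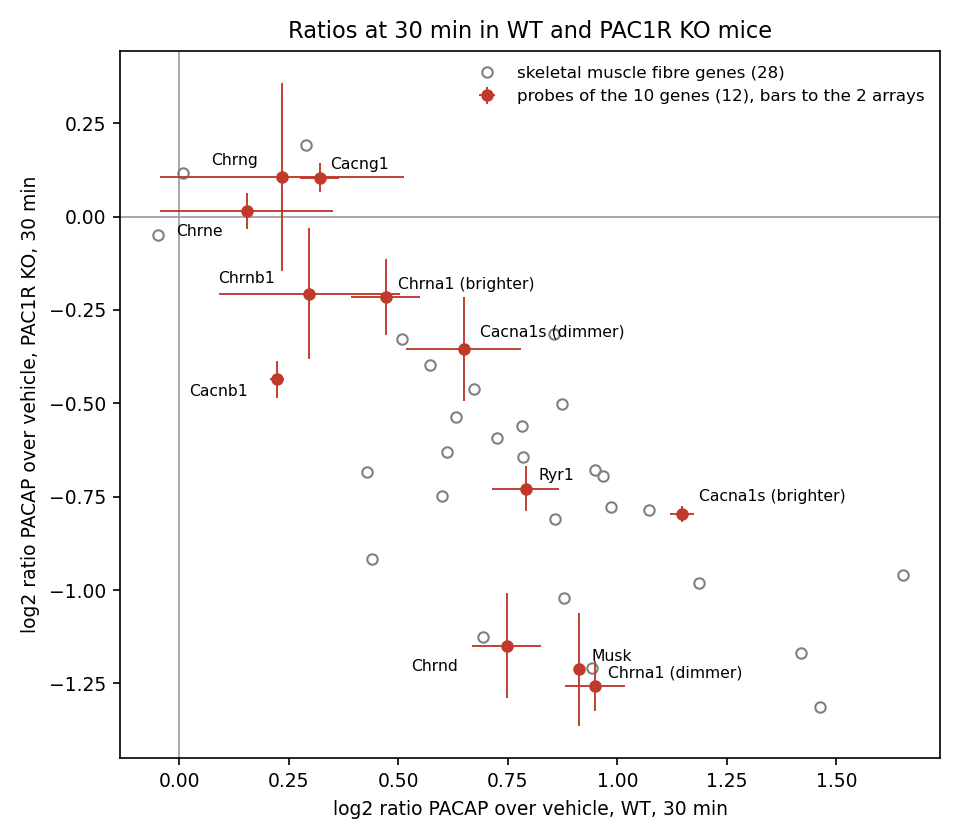
Log2 ratio of PACAP over vehicle at 30 min in WT mice (x axis) and in PAC1R KO mice (y axis). Filled points are the 12 probes with bars reaching the 2 arrays, and open circles are the 28 skeletal muscle fibre genes by their brightest probe. The points run from the upper left, with Chrne and Chrng, to the lower right, where Chrnd, Musk and Chrna1 (dimmer) lie among the muscle fibre genes.

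Other genes of excitation-contraction coupling had ratios in the same directions. Of 28 such genes, 25 were above 0 in WT mice at 30 min (median log2 ratio 0.44) and 4 in PAC1R KO mice at 30 min (median -0.28), beside medians of 0.40 and -0.33 for the 10 genes by their brightest probe, and 0 passed the 2.0-fold rule in any comparison. Among those with the highest signals, the calcium buffer Pvalb was at 1.75-fold and 0.683-fold, the sarcoplasmic reticulum cation channel Tmem38a at 1.43-fold and 0.670-fold, and Fkbp1a, a protein that binds the ryanodine receptor, at 1.01-fold and 0.884-fold. Of 11 other L-type channel and ryanodine receptor genes, which serve heart, smooth muscle, nerve and gland, 5 were well above background in all samples. Of the 11, 6 were above 0 in WT mice and 6 in PAC1R KO mice at 30 min, with medians of 0.01 and 0.09.

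The partners of the receptor at the junction had a median ratio near 1-fold in WT mice, with single genes on either side. Of 20 genes for junction assembly, 13 were above 0 in WT mice at 30 min (median 0.07, from -0.41 to 0.65) and 2 in PAC1R KO mice at 30 min (median -0.28), and 0 passed the 2.0-fold rule. Utrn, the dystrophin relative found at the junction, was highest in WT mice, at 1.57-fold, and at 0.707-fold in PAC1R KO mice, a gene named after its values were seen. Rapsn, which anchors the receptor, was at 1.05-fold in WT mice and 0.959-fold in PAC1R KO mice, and Agrn, the nerve signal to MuSK, at 1.09-fold and 0.716-fold. Of 15 genes for denervated and embryonic muscle, 2 were up-regulated in WT mice at 30 min: embryonic myosin Myh3 at 6.52-fold and 4.29-fold at its 2 dim probes, whose log2 levels went only from 6.43 to 7.24 and from 6.37 to 6.86, and perinatal myosin Myh8 at 2.63-fold. Myh8 was also the 1 gene of this list down-regulated in PAC1R KO mice at 30 min, at 0.435-fold.

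Neuronal nicotinic subunits and muscarinic receptors, which serve ganglia, gland and smooth muscle, were mostly near background. Of 11 neuronal nicotinic genes 2 were well above background in all samples, and of 5 muscarinic genes 0 were, and 0 of either list passed the 2.0-fold rule in any comparison. The median log2 ratios were between -0.08 and 0.00 in the 4 comparisons of both lists.

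Markers of other cells also differed from vehicle at 30 min. In PAC1R KO mice 0 of 10 epidermis genes, 0 of 7 dermal fibroblast genes, 0 of 8 Schwann cell genes and 0 of 8 smooth muscle and myoepithelium genes were above 0, with medians of -0.66, -0.55, -0.32 and -0.27, and Krt10 (0.365-fold) and Krt1 (0.455-fold) of the keratinised layers were down-regulated. In the same comparison the neutrophil list had a median of 0.77, with S100a8 at 4.13-fold and S100a9 at 4.01-fold, and the eccrine gland list one of -0.50. In WT mice at 30 min these lists had medians of 0.18 (epidermis), 0.33 (fibroblast), 0.19 (Schwann cell), 0.20 (neutrophil) and -0.17 (eccrine gland), and smooth muscle genes were at 0.03. Housekeeping genes were at 0.12 in WT mice and -0.06 in PAC1R KO mice. Axon genes were near background, with 1 of 7 well above it in all samples and medians of -0.01 and 0.03 at 30 min. The liver list was at -2.20 in WT mice at 60 min, with 7 of 8 genes counted as down-regulated, and the 12 probes in that comparison lay between 0.869-fold and 1.28-fold. The part of these cells in the ratios of the 10 genes was not tested.

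**Figure D4:**
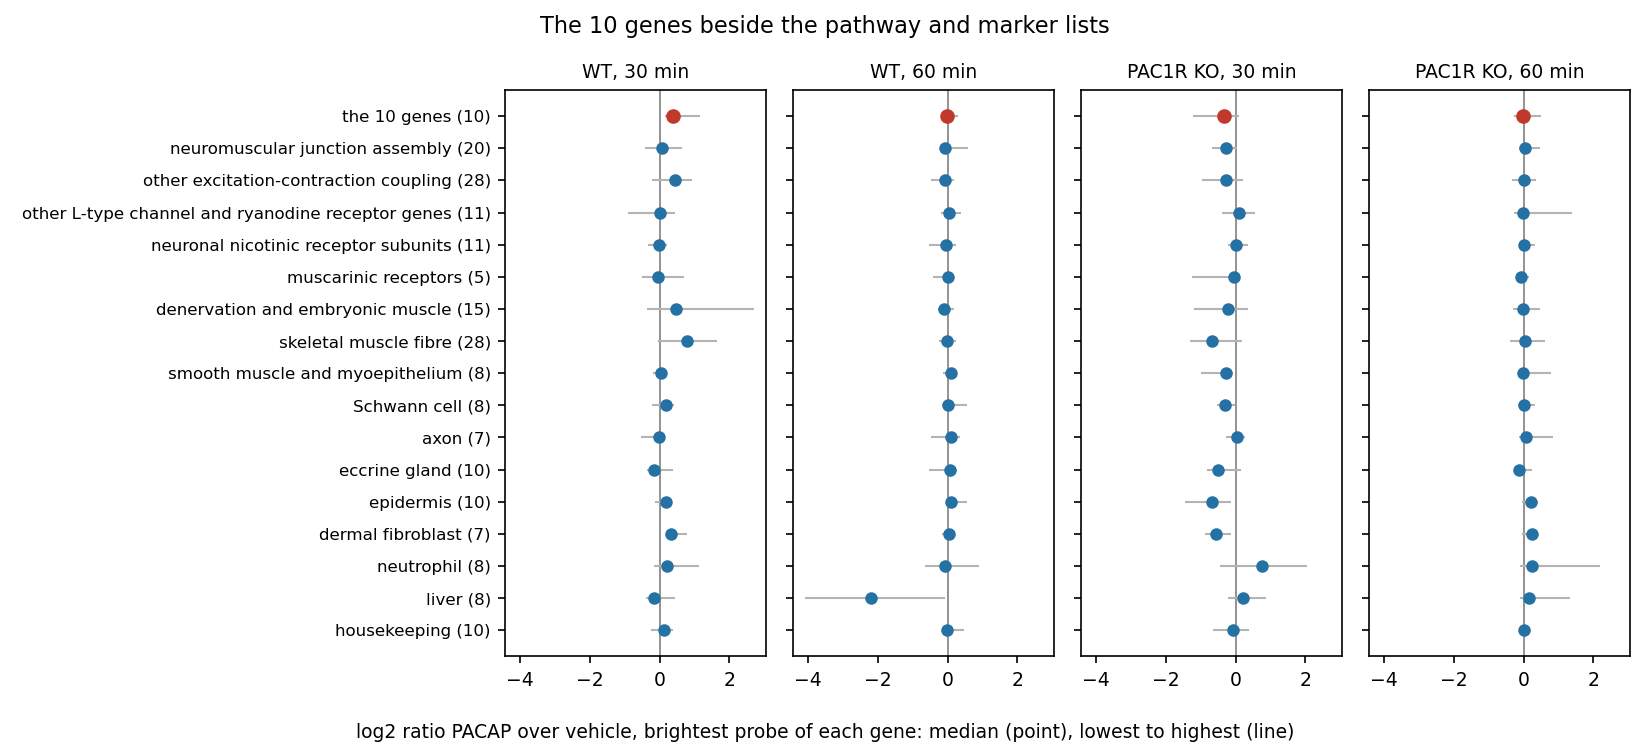
Median (point) and range (line) of the log2 ratio of PACAP over vehicle (x axis) for the 10 genes and for each pathway and marker list, by the brightest probe of each gene, in the 4 comparisons (panels, number of genes in brackets). The median of the 10 genes lies on the same side of 0 as that of the skeletal muscle fibre list at 30 min in both genotypes, with 10 of 10 genes above 0 in WT mice and 3 of 10 in PAC1R KO mice, and epidermis and fibroblast genes also lie below 0 in PAC1R KO mice at 30 min.

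The genes whose levels over the 8 RNA samples were most like the mean of the 7 members well above background throughout were an unnamed probe (A_55_P2145656, r = 0.99), Rpl3l (r = 0.98), Ckm (r = 0.96), Vgll2 (r = 0.96), Rbm24 (r = 0.96), Grb14 (r = 0.95), Tmem38a (r = 0.95), Stxbp4 (r = 0.94), Mn1 (r = 0.94) and Coq8a (r = 0.94). They were chosen as the highest of 2392 candidates, so the correlations describe these samples only. Vgll2 had the widest ratios among them, at 1.79-fold in WT mice and 0.461-fold in PAC1R KO mice at 30 min.

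Many muscle genes are read through E-boxes, CANNTG, in their promoters, where MyoD and myogenin bind. In the 250 bases before the start of transcription (RefSeq, GRCm38.p6), found for 8 of the 10 genes, the number of E-boxes was 3 for Chrna1, Chrnb1, Chrng and Musk, 2 for Cacna1s, 1 for Chrne and 0 for Ryr1, and 0 or 1 at the 2 starts of Cacnb1. An E-box stood in 66.2% of the 32851 promoters of the same length, and 12.2% held 3 or more. The form CAGCTG, part of the same motif, stood in 13.0% of all promoters and in those of Cacna1s, Chrna1, Chrne, Chrng and Musk. Both strands read the same for CAGCTG, and CANNTG was searched on both. The promoters of Cacna1s, Chrna1 and Musk, whose ratios at 30 min were among the widest, and of Chrne, whose ratios were near 1-fold, are shown with E-boxes in capitals.
Cacna1s, chr1:136052561-136052810, plus strand: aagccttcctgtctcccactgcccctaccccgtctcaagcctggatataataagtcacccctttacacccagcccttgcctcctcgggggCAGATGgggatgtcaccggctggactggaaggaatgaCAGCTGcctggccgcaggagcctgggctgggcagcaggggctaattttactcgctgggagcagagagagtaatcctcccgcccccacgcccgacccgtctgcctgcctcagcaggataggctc
Chrna1, chr2:73580339-73580588, minus strand: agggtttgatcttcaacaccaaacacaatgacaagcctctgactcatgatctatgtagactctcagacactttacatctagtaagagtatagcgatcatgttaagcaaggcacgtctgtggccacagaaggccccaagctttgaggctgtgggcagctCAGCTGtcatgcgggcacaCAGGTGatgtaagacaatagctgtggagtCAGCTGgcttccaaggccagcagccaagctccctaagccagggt
Musk, chr4:58285712-58285961, plus strand: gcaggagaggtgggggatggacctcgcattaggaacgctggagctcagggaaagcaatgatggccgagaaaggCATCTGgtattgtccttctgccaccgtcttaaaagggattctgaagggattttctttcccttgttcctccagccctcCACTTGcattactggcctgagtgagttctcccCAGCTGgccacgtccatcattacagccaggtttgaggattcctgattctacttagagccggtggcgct
Chrne, chr11:70619195-70619444, minus strand: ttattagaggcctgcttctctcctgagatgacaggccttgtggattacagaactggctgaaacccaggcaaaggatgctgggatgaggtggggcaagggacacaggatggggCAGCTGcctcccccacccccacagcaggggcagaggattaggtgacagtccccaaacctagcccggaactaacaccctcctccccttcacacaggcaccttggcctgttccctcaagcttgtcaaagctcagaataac
In Chrna1 the E-boxes begin 92, 73 and 44 bases before the start, in Musk 177, 100 and 68, in Cacna1s 160 and 123, and in Chrne 138. Chrne also holds 1 CCGGAA, the N-box through which synaptic nuclei raise receptor genes, found on either strand in 12.0% of all promoters. Genes with E-boxes in this window thus included Chrne and Chrng, with ratios near 1-fold, and Ryr1, with ratios of 1.73-fold and 0.604-fold at 30 min, had none there. A match to these letters is not evidence of binding in these samples.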

How the data were processed

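Two-colour Agilent 4x44K arrays of total RNA, amplified by a linear method, were scanned by the authors. The authors deposited Feature Extraction files (version 12.0.3.1 per the file headers, 11.0.1.1 in the submitters' processing notes). These hold log10 ratios of red over green, background-corrected and LOWESS-normalized, a p-value per spot from the software's error model (deposited with the ratios), and intensity values per channel with local backgrounds, also deposited. The deposited series matrix holds the log10 ratio of the processed signals.

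Control spots and the 198 to 342 outlier spots per array were left out, and 0 were saturated. Ratios were turned to PACAP over vehicle (log2) and averaged over both arrays. Levels came from normexp background correction (offset 50), loess and Aquantile in limma 3.58.1 (R 4.3.3), averaged per RNA sample. Levels of different probes were not compared as amounts of RNA. They served to rank the probes of a gene, to pick genes with the highest signals and to sum a list. Tests were limma fits (lmFit, eBayes, Benjamini-Hochberg adjustment) on 30351 probes for which every array had 1 or both channels well above background, or 37525 with such a signal in a vehicle sample. They were tested on simulated data with 200 probes changed by 3 on the log2 scale. Of these, 174 (vehicle samples, PAC1R KO against WT) to 200 (mean of the comparisons) were found, with 5 to 16 false calls. The fitted values of the probes described here were smaller, the widest in PAC1R KO against WT being -1.23 at the dimmer Chrna1 probe. Changes of that size were not simulated, so whether the fits would find them was not tested. Alternatives were other ratios, p filters, fold limits, detection filters, covariates and single arrays or comparisons left out. Python 3.11.15 with numpy 2.4.6, pandas 2.3.3 and matplotlib 3.10.9 was used for the rest. Genes named are the 10, Adcyap1r1, members of 6 pathway and 10 marker lists past the thresholds or with the highest signals, and the 10 genes with the most similar levels (SD of at least 0.3). The 10 genes and the lists were chosen with earlier results of these data known. Each gene of a list was taken at its brightest probe, and counts of genes up- or down-regulated used all its probes. Promoters and their build are RefSeq's. The sequence of 1 probe and the values of 1 listed gene are not reported here.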

Additional observations from a re-analysis of the deposited data

Results flagged for a closer look

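The ratio of PACAP over vehicle ran in opposite directions in 2 groups, on both arrays of each, at some of the 12 probes. For WT less PAC1R KO mice at 30 min this held at 9 of 12 probes (28.8% of all probes, 51.8% of those well above background), with log2 differences of 1.94 at Cacna1s (brighter), 1.00 at Cacna1s (dimmer), 0.66 at Cacnb1, 1.52 at Ryr1, 0.69 at Chrna1 (brighter), 2.21 at Chrna1 (dimmer), 0.50 at Chrnb1, 1.90 at Chrnd and 2.12 at Musk. For WT less PAC1R KO mice at 60 min it held at 5 of 12 (9.01% of all probes and 15.3% of those above background), with -0.34 at Cacna1s (brighter), -0.42 at Cacna1s (dimmer), 0.19 at Cacnb1, -0.67 at Ryr1 and 0.57 at Chrne. For 30 less 60 min in WT mice it held at 3 of 12 (8.59% and 15.3%), with 1.22 at Cacna1s (brighter), 0.85 at Cacna1s (dimmer) and 0.95 at Ryr1. For 30 less 60 min in PAC1R KO mice it held at 4 of 12 (21.3% and 35.3%), with -1.06 at Cacna1s (brighter), -0.58 at Cacna1s (dimmer), -1.24 at Ryr1 and -1.35 at Musk.

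These differences between single comparisons were not tested, since each rests on 1 pair of RNA samples and the 2 arrays of a pair hold the same RNA. WT and PAC1R KO arrays also lay on different slides, and genotype and slide therefore cannot be told apart. No group held enough samples to test for a sample far from the others.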

How the results depend on the processing

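The count in WT mice at 30 min was 1 up-regulated probe, and it was 2 on the array with PACAP in Cy5 alone and 5 at 1.5-fold on both arrays with no p filter. The count in PAC1R KO mice at 30 min was 3 down-regulated probes, and it was 0 after normexp and loess, 0 with an offset of 0 (chosen after seeing the data) and 5 at 1.5-fold on both arrays with no p filter. The other 91 counts over alternatives, comparisons and directions were within 1.5 times the reported ones. The counts of 5 at 1.5-fold on both arrays became 1 in WT and 1 in PAC1R KO mice at 30 min after normexp and loess, and 3 and 4 with an offset of 0 (all chosen after seeing the data), and the cause of what an offset of 0 leaves was not tested. The 4 ratios past the thresholds kept their direction in 28 of 28 alternative values, at 0.22 to 1.12 times their reported log2 size. An offset adds a constant to both channels and by its construction shrinks the ratio of a dim probe, which is the case for Chrna1 (dimmer), Chrnd and Musk, whereas the brighter Cacna1s probe, far above background, was at 1.15 on the log2 scale with either offset.

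In the 5 limma fits the number of the 12 probes past an adjusted p of 0.05 was 0 under all 56 alternatives run, leaving out each comparison in turn included. Over all probes the 0 of the mean of the comparisons became 2318 with the Cy5 arrays alone and 2118 with the Cy3 arrays alone, where dye bias no longer cancels. The 0 of PAC1R KO against WT became 170 without WT mice at 30 min, 83 without WT mice at 60 min and 17 with the time as a covariate, and for 60 against 30 min it became 18 without PAC1R KO mice at 60 min and 2 with the genotype as a covariate. For the mean of the comparisons, 1 probe passed without WT mice at 30 min. Of 659 fitted values of the 12 probes under alternatives, 71 had the other sign, none past the threshold. Levels less their mean over samples moved by more than the SD between arrays in 110 of 192 cases. No paired analysis was possible because the numbers shared by the groups mark the 2 dye orientations of the same RNA pair, which are averaged within each comparison. The number of arrays and the dimness of Chrnd, Chrng, Musk and the dimmer Chrna1 probe limit what can be told.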
